A study of Homo sapiens with 4 samples.

Results

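The genes described here are those of the small Cajal body RNAs, chosen as all genes whose platform annotation symbol begins with SNORD, SNORA or SCARNA and a number. The rule found 21 genes among the 14812 with a gene name here, and all 21 were SCARNA genes. No probe set with a single gene symbol carried a SNORD or SNORA symbol. Probe sets with several symbols were not used, so the box C/D and H/ACA small nucleolar RNAs are not analysed here. The cells were of the established human neuroblastoma line BE(2)C and were transfected with a non-targeting control siRNA in 2 samples or with SSRP1 siRNA in 2 samples. Medium with serum and a lipid transfection reagent were common to both groups, and RNA was taken at 72 hours. The labels give a single catalogue entry for the SSRP1 siRNA, so effects of that sequence on other targets cannot be told apart from the loss of SSRP1. Each sample was hybridised to 1 Affymetrix Human Gene 2.0 ST array, which is read here as a log2 signal per probe set. All SCARNA genes had 1 probe set each.

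Small Cajal body RNAs, or scaRNAs, guide the chemical modification of the spliceosomal U snRNAs. Box C/D scaRNAs direct 2′-O-methylation with the methyltransferase fibrillarin (FBL), and H/ACA scaRNAs direct pseudouridylation with dyskerin (DKC1). A few carry both kinds of domain. Most are processed from introns of other genes, while SCARNA2 is known to have a transcription unit of its own. SSRP1 is a subunit of FACT, a histone chaperone that opens and restores nucleosomes during transcription. The 2 groups show whether the signal of these RNAs differed once SSRP1 was depleted.

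The arrays were close to each other, with Pearson correlations over all probe sets between 0.990 and 0.993, and over the 21 scaRNA genes between 0.980 and 0.990. SSRP1 itself had log2 signals of 9.05 and 9.23 with control siRNA and of 7.42 and 6.97 with SSRP1 siRNA, which left 26.0% of the control level (limma adjusted p = 0.0479). With any 1 of the 4 arrays left out, its log2 change of -1.95 stayed between -2.17 and -1.72, while the adjusted p lay between 0.241 and 0.599. The 13 measured noradrenergic neuroblastoma markers had mean signals between 6.52 and 10.7. Of these 13, 9 had a change below 0, while 48.3% of all genes lay above 0. Groups did not overlap for 9 of the 13 (69.2%, 3 higher and 6 lower). This held for 44.3% of all genes (21.8% higher, 22.5% lower) and 53.4% of those at or above the median signal. A limma unadjusted p under 0.05 was found for 5 (38.5%, 2 higher and 3 lower). The shares were 12.6% of all genes and 15.8% of those at or above the median signal. Those 5 were DBH (-0.77), HAND2 (-0.38), TH (-0.34), CHGA (0.34) and DDC (0.43), and none passed the test. Of 7 fibroblast markers 3 were measured, with array medians of 6.51 and 6.38 with control siRNA and 6.69 and 6.71 with SSRP1 siRNA, and changes of 1.20 (LUM, limma adjusted p = 0.184), 0.25 (THY1) and -0.04 (DCN, at a mean signal of 2.60). Of 5 glial markers 3 were measured, with medians of 4.95 and 4.77 and of 5.27 and 5.14, and changes of 0.47 (S100B), 0.04 (SOX10) and -0.01 (GFAP). Of 7 blood and endothelial markers only CD68 was measured, at 6.31 and 6.10 on average. The part of these markers and cell types in the values below was not tested. Whether replicates were separate cultures is not stated in the labels, so the spread behind each p-value is that of these 4 samples and may be technical. In these bulk samples fewer cells of a type and less RNA per cell cannot be told apart.

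The scaRNA genes spanned a wide range of signal. Their mean log2 signal ran from 2.24 (SCARNA15) to 9.77 (SCARNA22), with a median of 5.56 against 4.63 over all genes. SCARNA22, an H/ACA scaRNA known as ACA11 and raised together with its host NSD2 in a translocation of multiple myeloma, read 9.77 and 9.75 with control siRNA and 9.71 and 9.84 with SSRP1 siRNA. SCARNA10, known as U85, which guides both a methylation and a pseudouridylation of U5 snRNA, read 7.91 and 7.85 with control siRNA. SCARNA17, a box C/D guide, read 7.57 and 7.56. In all, 14 of the 21 scaRNA genes lay at or above the median gene and 7 lay below it. Probes differ in how well they bind, so these signals do not rank the RNAs by abundance, and a dim probe set can reflect background. An intronic probe set also does not tell a mature scaRNA from the unspliced host transcript.

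**Figure D1:**
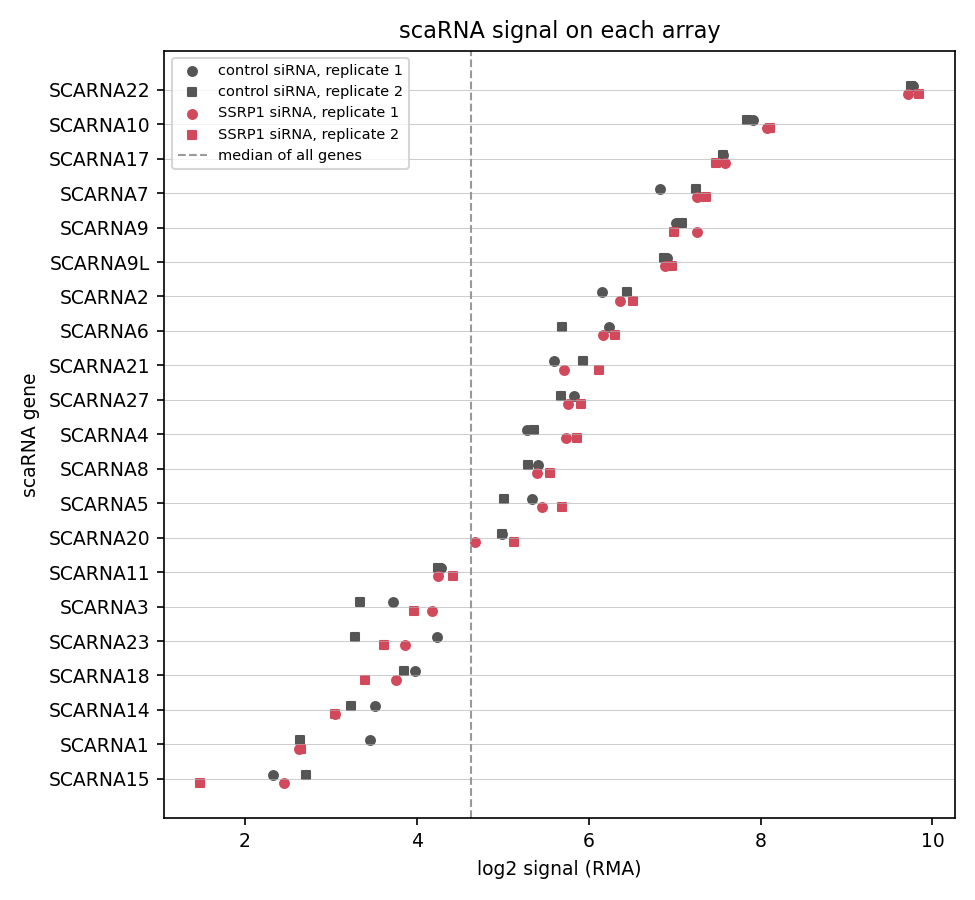
Log2 signal (RMA, x axis) of each of the 21 scaRNA genes (y axis, ordered by mean signal) on the 2 control siRNA arrays (grey) and the 2 SSRP1 siRNA arrays (red), with circles for replicate 1, squares for replicate 2 and a dashed line at the median of all genes. SCARNA4, SCARNA3, SCARNA5, SCARNA7 and SCARNA10 have both red points to the right of both grey points, and SCARNA14 and SCARNA18 have them to the left.

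At a limma adjusted p under 0.05, none of the 21 scaRNA genes was called, against 14 of all 14812 genes (0.0945%). Their adjusted p lay between 0.214 and 0.992. In simulated data this fit called 1.6% of true log2 changes of 0.5, so the absence of calls says little about changes of that size. At an unadjusted p under 0.05 there were 4 scaRNA genes, 3 higher and 1 lower, which is 19.0% against a background of 12.6%. For genes higher the background was 6.56% and for genes lower 6.03%. The 2 groups did not overlap for 7 of the 21 (33.3%), 5 higher and 2 lower, while this held for 44.3% of all genes, 21.8% higher and 22.5% lower. Both shares of the scaRNA genes rest on few genes. The median log2 change was 0.07 over the scaRNA genes and -0.007 over all genes, and 14 of 21 lay above 0 (66.7%, against 48.3% of all genes). Leaving out 1 array moved that median to 0.153 (SSRP1 siRNA replicate 1), 0.0163 (SSRP1 siRNA replicate 2), 0.0471 (control replicate 1) or 0.0154 (control replicate 2). The count at an unadjusted p under 0.05 ran from 2 to 5 in those fits, with 2 without SSRP1 siRNA replicate 2. Of the 21 intervals (95%, not adjusted for the number of genes), 17 held 0 and 19 lay within 1 log2 unit of 0 on both sides. For those 19 genes a change of 2-fold or more in array signal lay outside the interval. Since a dim probe set can reflect background, the intervals do not bound the change of the RNA itself.

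**Figure D2:**
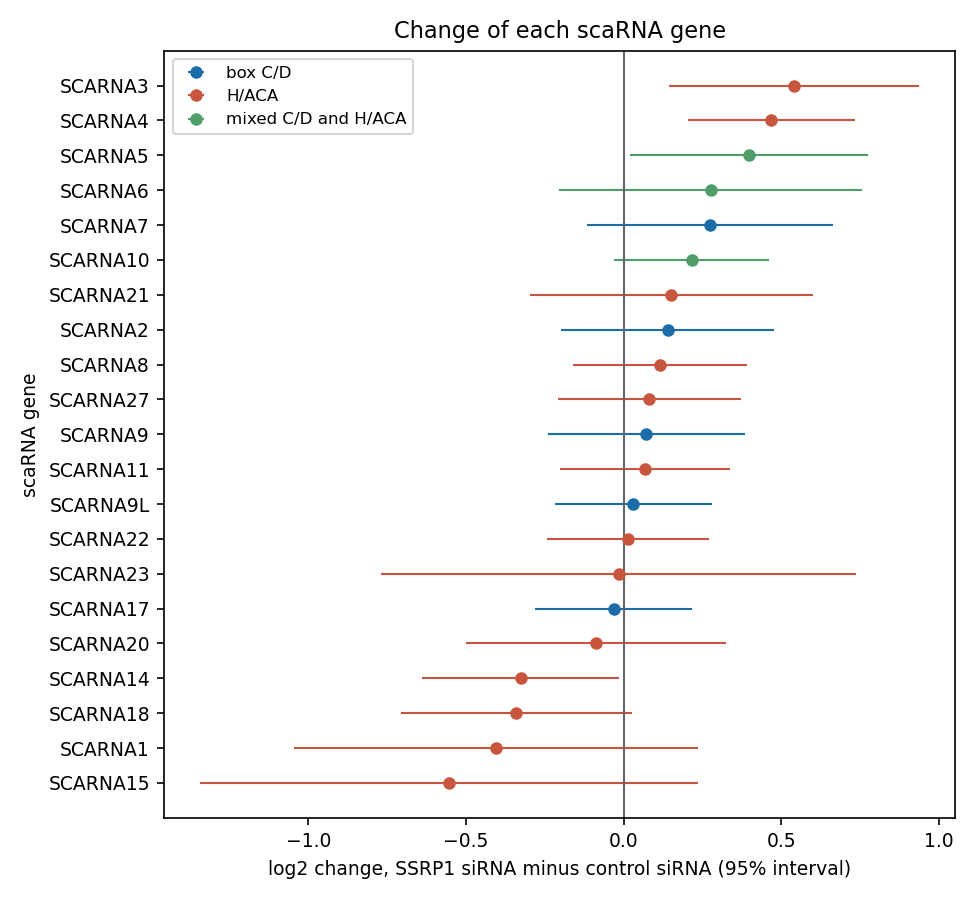
Log2 change of each scaRNA gene (SSRP1 siRNA minus control siRNA, x axis) with its 95% interval from limma (bars), ordered by change and coloured by the kind of guide. The intervals of SCARNA3, SCARNA4 and SCARNA5 lie above 0 and that of SCARNA14 lies below it, before any adjustment for the number of genes.

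Among the H/ACA scaRNAs, SCARNA4 and SCARNA3 had the highest changes. SCARNA4, known as ACA26, a pseudouridylation guide for U2 snRNA, read 5.28 and 5.37 with control siRNA and 5.73 and 5.86 with SSRP1 siRNA. Both SSRP1 siRNA arrays lay above both control arrays by more than the replicates differed. The log2 change was 0.47 ± 0.11 (SE), or 138% of control with a 95% interval of 115 to 166% (unadjusted p = 0.00513, limma adjusted p = 0.214). Leaving out any 1 array kept it between 0.404 and 0.533. With the dimmer part of all genes left out of the fit, its limma adjusted p was 0.0608, the lowest of any alternative. That fit called 179 genes, where the main fit called 14. Over all probe sets the limma adjusted p of SCARNA4 was 0.474. SCARNA3 read 3.72 and 3.34 with control siRNA and 4.18 and 3.97 with SSRP1 siRNA, a log2 change of 0.54 ± 0.16 (SE, limma adjusted p = 0.296). Its groups did not overlap either, but it was dimmer than the median gene and its control arrays lay farther apart than its SSRP1 siRNA arrays. Leaving out an array moved its change to between 0.351 (control replicate 2) and 0.730 (control replicate 1).

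The 3 scaRNAs with both kinds of domain were all higher on average with SSRP1 siRNA. SCARNA5, known as U87, read 5.34 and 5.01 with control siRNA and 5.46 and 5.69 with SSRP1 siRNA, a log2 change of 0.40 ± 0.15 (SE, unadjusted p = 0.0423, limma adjusted p = 0.381). That change was 0.234 with control replicate 2 left out. SCARNA6, known as U88, lies in the same host gene and read 6.24 and 5.68 with control siRNA and 6.17 and 6.31 with SSRP1 siRNA. Its groups overlapped, and its change of 0.28 ± 0.19 (SE) became -0.00115 without control replicate 2, the array on which both SCARNA5 and SCARNA6 were lowest. SCARNA10 had SSRP1 siRNA values of 8.08 and 8.11 and a change of 0.22 ± 0.10 (SE, limma adjusted p = 0.450), with replicates that differed by less than the groups did. The median change of these 3 genes was 0.28, and leaving out an array moved it to between 0.183 (control replicate 2) and 0.553 (control replicate 1).

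The 5 box C/D scaRNAs had changes between -0.03 and 0.27, 4 above 0 and 1 below, and none had an unadjusted p under 0.05. SCARNA7, known as U90, a methylation guide for U1 snRNA, read 6.83 and 7.24 with control siRNA and 7.26 and 7.36 with SSRP1 siRNA. Its groups did not overlap, yet the nearest values of the groups were 7.24 and 7.26, and the change was 0.27 ± 0.16 (SE, limma adjusted p = 0.548). It ranged from 0.0679 with control replicate 1 left out to 0.479 with control replicate 2 left out. SCARNA2 and SCARNA9, methylation guides for U2 snRNA, had changes of 0.14 ± 0.14 and 0.07 ± 0.13 (SE). SCARNA17, a guide for U4 and U12 snRNAs, read 7.58 and 7.49 with SSRP1 siRNA, a change of -0.03 with a 95% interval from -0.28 to 0.22. SCARNA9L is a related copy of SCARNA9, and the signals of such a pair can share RNA. It read between 6.88 and 6.97 on the 4 arrays, where SCARNA9 read between 6.99 and 7.26.

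The lowest changes with SSRP1 siRNA were those of dim H/ACA scaRNAs. SCARNA20 (-0.09) and SCARNA17 (-0.03) also lay below 0, at mean signals of 4.95 and 7.55, above the median gene. SCARNA14 read 3.51 and 3.23 with control siRNA and 3.05 and 3.05 with SSRP1 siRNA, a log2 change of -0.33 ± 0.13 (SE, unadjusted p = 0.0436, limma adjusted p = 0.385). Omitting control replicate 1 gave -0.187 for SCARNA14. SCARNA18 read 3.98 and 3.85 with control siRNA and 3.76 and 3.40 with SSRP1 siRNA, a change of -0.34 ± 0.15 (SE, limma adjusted p = 0.424). Omitting SSRP1 siRNA replicate 2 gave -0.16 for SCARNA18, and omitting SSRP1 siRNA replicate 1 gave -0.519. In both genes the SSRP1 siRNA arrays lay below the control arrays. SCARNA15 and SCARNA1, guides for U2 snRNA known as ACA45 and ACA35, had changes of -0.55 ± 0.32 and -0.40 ± 0.26 (SE), and in each 1 array stood apart. SCARNA15 read 2.33 and 2.71 with control siRNA and 2.45 and 1.48 with SSRP1 siRNA, and its change was -0.0693 without SSRP1 siRNA replicate 2. SCARNA1 read 3.46 and 2.64 with control siRNA and 2.63 and 2.66 with SSRP1 siRNA, and its change was 0.00495 without control replicate 1.

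The other 7 H/ACA scaRNAs showed changes between -0.09 and 0.15, with an unadjusted p of at least 0.340. They were SCARNA8, SCARNA11, SCARNA20, SCARNA21, SCARNA22, SCARNA23 and SCARNA27. SCARNA22, the brightest of them, had a change of 0.01 (-0.0233 after quantile normalization) with a 95% interval from -0.24 to 0.27. SCARNA11, known as ACA57, a guide for U5 snRNA, had one of 0.07 with an interval from -0.20 to 0.34. SCARNA23 gave the least precise value of the group, since its control arrays read 4.23 and 3.28, and its interval ran from -0.77 to 0.74.

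In the main fit, the direction of the change went with the signal of the scaRNA genes, in a split made after the values were seen. The sign of 11 of the 21 turned in some alternative fit, so the counts that follow are not stable. Of the 14 at or above the median level, 12 were above 0, with a median of 0.13, and of the 7 below it 2 were above 0, with a median of -0.33. Over all genes, 49.9% of those at or above that level and 46.6% of those below it lay above 0. Spearman's rho between mean signal and change was 0.416 over the 21 scaRNA genes and 0.0264 over all genes, as a description only, since all points share the same 4 arrays. SCARNA3, the dim gene with the highest change, went against this pattern and was picked after its values were seen. Leaving it out was therefore bound to raise rho, which became 0.507. No gene that went with the pattern was left out in turn. Precision moved with signal too: the median residual SD was 0.12 in the 14 brighter scaRNA genes and 0.22 in the 7 dimmer ones, against 0.09 and 0.14 over all genes. Whether the dim values carry background was not tested, since no detection values were used.

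**Figure D3:**
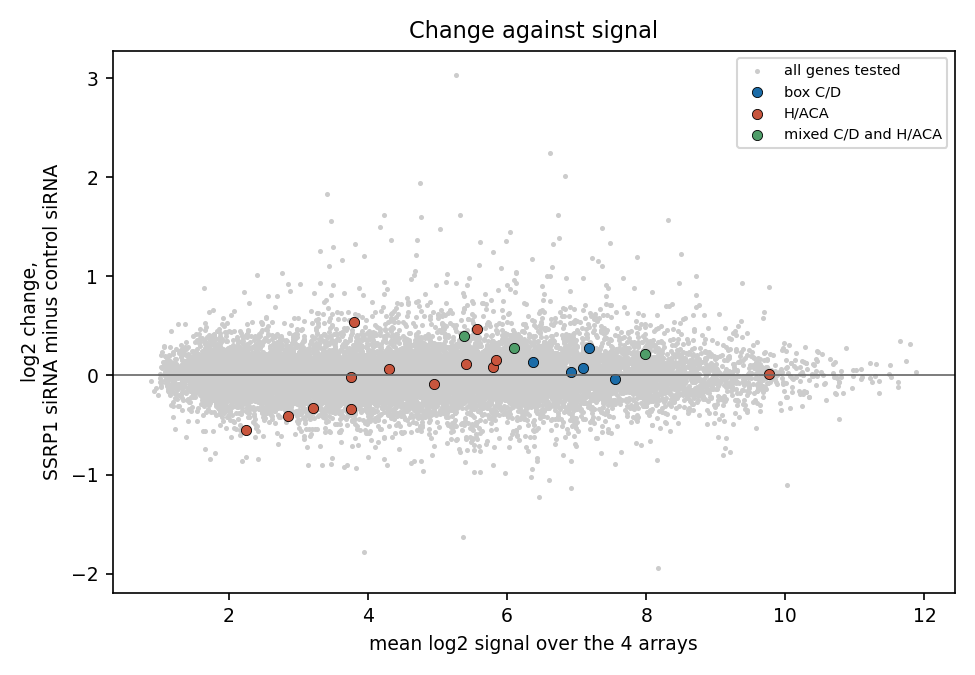
Log2 change (SSRP1 siRNA minus control siRNA, y axis) against mean log2 signal over the 4 arrays (x axis) for all 14812 genes (grey points) and the 21 scaRNA genes (coloured by the kind of guide). The scaRNA points lie inside the cloud of all genes, and 5 of the 7 below a signal of 4.63 lie under the zero line.

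Kind of guide and length divided these genes in the same way. All 13 H/ACA scaRNAs were under 200 nt in RefSeq, and all 8 box C/D and mixed scaRNAs were longer. The 8 longer genes had mean signals between 5.38 and 7.99, while the 13 shorter ones ran from 2.24 to 9.77 with a median of 4.30. Spearman's rho between length and signal was 0.427 over the 21 genes, and SCARNA22, at 125 nt the shortest gene and the brightest, went against it. The median change was 0.18 over the 8 longer genes and 0.01 over the 13 shorter ones. For the shorter genes it was 0.143 with SSRP1 siRNA replicate 1 left out and -0.0487 with SSRP1 siRNA replicate 2 left out. All 7 scaRNA genes below the median level were among the shorter ones. The 6 shorter genes at or above that level had a median change of 0.0993. Kind of guide and length cannot be told apart in these genes, and neither was separated from signal. How far RNA isolation and labelling depend on length was not tested.

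**Figure D4:**
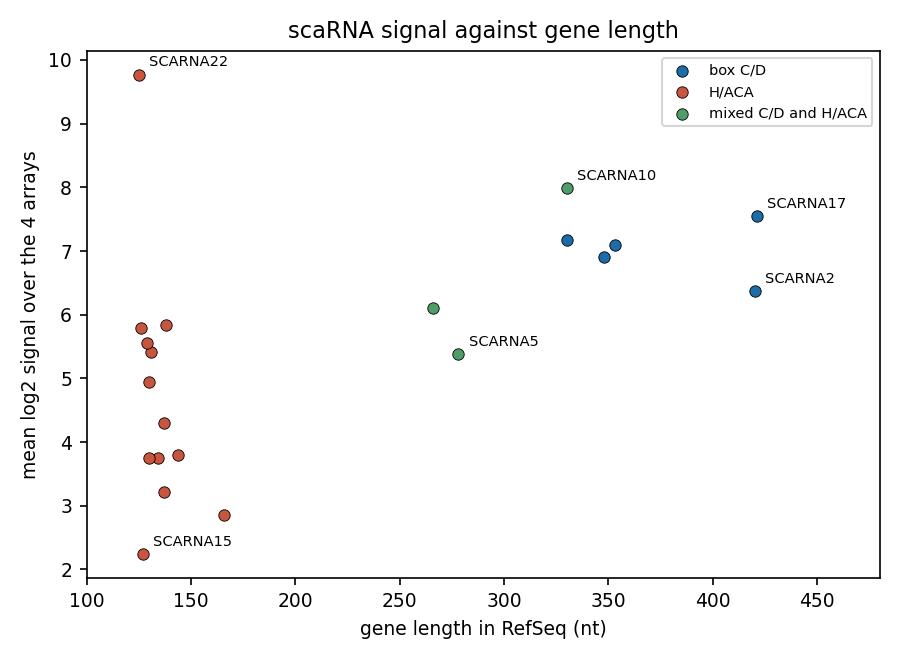
Mean log2 signal over the 4 arrays (y axis) against gene length in RefSeq (nt, x axis) for the 21 scaRNA genes, coloured by the kind of guide. The box C/D and mixed genes lie above a signal of 5, while the H/ACA genes, all under 200 nt, cover the full range from SCARNA15 to SCARNA22.

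Of the 21 scaRNA genes, 20 lay within the span of another gene in RefSeq, and SCARNA2 did not. The 20 spans belonged to 19 host genes, of which 9 had a named probe set here, for 10 scaRNA genes. The table gives no strand, so a span on the opposite strand was not told apart. None of the 9 hosts had an unadjusted p under 0.05, and their changes lay between -0.15 and 0.15. That share was 12.6% of all genes and 15.8% of those at or above the median level, where 8 of the 9 lay. KHDC4, an RNA-binding protein gene linked to splicing that holds SCARNA4, read 6.73 and 6.71 with control siRNA and 6.71 and 6.67 with SSRP1 siRNA. Its change was -0.03 ± 0.10 (SE), where that of SCARNA4 was 0.47 ± 0.11 (SE). ATG16L1, an autophagy gene that holds both SCARNA5 and SCARNA6, had a change of 0.05 ± 0.10 (SE). TIPIN, a replication fork protein gene that holds SCARNA14, had a change of 0.02 ± 0.12 (SE, -0.0063 after quantile normalization), and TMEM167A, which holds SCARNA18, one of -0.06 ± 0.11 (SE). Signs matched in 5 of the 10 pairs. The difference between a scaRNA and its host was not tested.

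**Figure D5:**
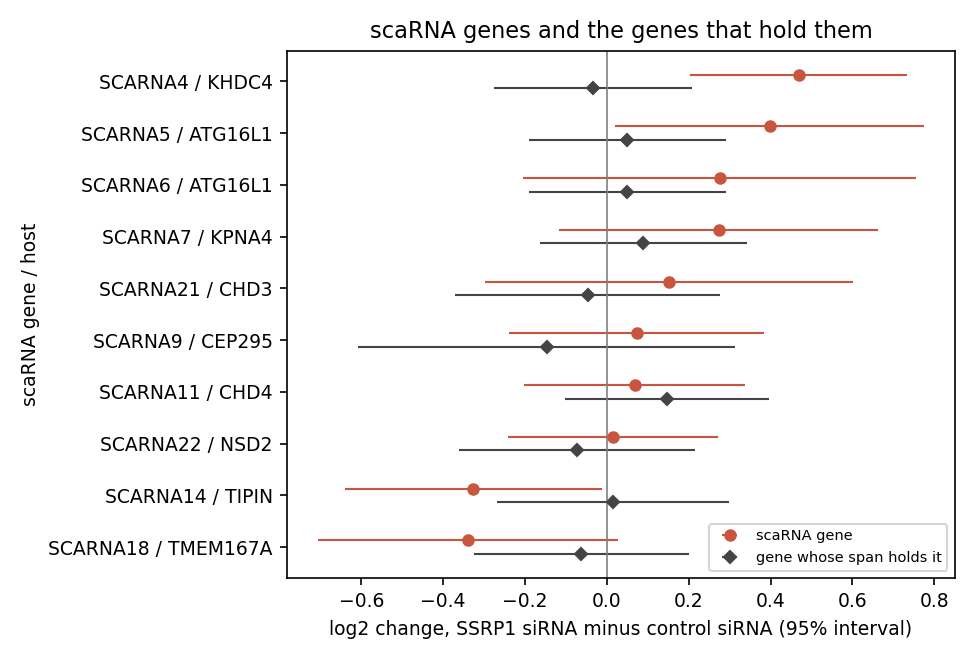
Log2 change with its 95% interval (x axis) for the 10 scaRNA genes whose host has a named probe set (red circles) and for that host (dark diamonds), ordered by the change of the scaRNA. The hosts lie within 0.15 of 0. SCARNA4, SCARNA5, SCARNA6, SCARNA7, SCARNA9, SCARNA21 and SCARNA22 lie to the right of their hosts, and SCARNA11, SCARNA14 and SCARNA18 to the left.

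The promoters of the hosts of SCARNA4 and of SCARNA5 and SCARNA6 are shown because an intronic scaRNA is transcribed from its host's promoter, and these hosts were measured beside their scaRNAs. They are taken from RefSeq (GRCh38.p14) as 250 bases before to 50 bases after the annotated start, 5′ to 3′ on the strand of the gene. The window of ATG16L1 is chr2:233251423-233251722 (plus strand) and that of KHDC4 chr1:155934364-155934663 (minus strand). Capitals mark matches, on either strand, to the ETS factor core CCGGAAG, the GC box GGGCGG and the TATA box TATAAA.
ATG16L1: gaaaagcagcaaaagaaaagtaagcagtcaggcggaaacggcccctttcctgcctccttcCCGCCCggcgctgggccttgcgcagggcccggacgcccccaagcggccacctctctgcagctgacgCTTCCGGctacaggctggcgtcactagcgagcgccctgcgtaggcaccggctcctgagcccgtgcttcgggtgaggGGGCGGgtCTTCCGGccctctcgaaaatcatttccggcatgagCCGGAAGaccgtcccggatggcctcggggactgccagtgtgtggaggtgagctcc
KHDC4: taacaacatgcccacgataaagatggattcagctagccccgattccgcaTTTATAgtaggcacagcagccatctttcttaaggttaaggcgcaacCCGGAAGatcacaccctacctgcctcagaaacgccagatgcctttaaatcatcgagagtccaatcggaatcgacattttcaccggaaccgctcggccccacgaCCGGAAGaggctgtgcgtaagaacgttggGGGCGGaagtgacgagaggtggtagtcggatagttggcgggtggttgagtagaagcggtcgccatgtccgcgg

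The ATG16L1 window held 3 ETS matches, 2 GC boxes and no TATA match, and was 66.7% G and C. The KHDC4 window held 2 ETS matches, 1 GC box and 1 TATA match, and was 54.3% G and C. Of the 19 hosts, 18 had a promoter entry, and 7 of these (38.9%) held the ETS core, against 10.7% of all 27305 gene promoters of this length. The GC box was found in 17 of the 18 (94.4%, against 44.6%), and the TATA box in 1 (5.56%, against 12%). A match describes the letters of the window and not a bound site. The 27305 promoters were not matched to the hosts for gene type or signal. Of the 9 measured hosts, 8 lay at or above the median level. Whether these shares are particular to scaRNA hosts was not tested.

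The proteins that build and use these RNAs were compared as a list of 40 genes, of which 29 were measured. None passed the test, and 1 had an unadjusted p under 0.05 (3.45%, against 12.6% of all genes and 15.8% of those at or above the median level). The groups did not overlap for 15 of the 29 (51.7%), 4 higher and 11 lower. This held for 44.3% of all genes, 21.8% higher and 22.5% lower. All 29 lay at or above the median level, where it held for 53.4% of genes, so 51.7% was not above that share. Their changes lay between -0.28 and 0.11 with a median of -0.03. Of the box C/D core, FBL, the methyltransferase, had a change of -0.07 ± 0.10 (SE), NOP58 one of 0.11 ± 0.10 (SE), and SNU13, which binds the k-turn of the RNA, one of -0.03 ± 0.10 (SE). The 3 measured H/ACA core proteins were each lower on both SSRP1 siRNA arrays, which held for 22.5% of all genes, with no unadjusted p under 0.05. NOP10 read 9.14 and 9.33 with control siRNA and 9.05 and 9.10 with SSRP1 siRNA, a change of -0.16 ± 0.11 (SE, limma adjusted p = 0.621) that was -0.0685 without control replicate 2. GAR1 and NHP2 had changes of -0.07 ± 0.10 and -0.04 ± 0.10 (SE). DKC1 and NOP56 are not analysed here.

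NUFIP1, an assembly factor for box C/D particles, was the gene of this list with an unadjusted p under 0.05. It read 6.38 and 6.32 with control siRNA and 6.12 and 6.02 with SSRP1 siRNA, a change of -0.28 ± 0.10 (SE, unadjusted p = 0.0352, limma adjusted p = 0.364). NOLC1, a nucleolar and Cajal body chaperone of both kinds of particle, read 9.46 and 9.33 with control siRNA and 9.19 and 9.12 with SSRP1 siRNA. Its change was -0.24 ± 0.11 (SE, limma adjusted p = 0.420), and its groups did not overlap. NAF1, which assembles H/ACA particles, and the exonuclease gene XRN1 had changes of -0.14 ± 0.11 and -0.18 ± 0.14 (SE), which were -0.0551 and -0.0381 with SSRP1 siRNA replicate 2 left out. COIL, the scaffold protein of Cajal bodies, had a change of 0.06 ± 0.11 (SE), and the 4 measured Cajal body genes lay between 0.02 and 0.11.

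Related noncoding genes were examined after their values had been seen. TERC, the telomerase RNA, which ends in an H/ACA domain and gathers in Cajal bodies, read 8.41 and 8.34 with control siRNA and 8.24 and 8.41 with SSRP1 siRNA, a change of -0.05 ± 0.11 (SE). Genes whose span holds a SNORD or SNORA gene in RefSeq numbered 264, of which 133 were measured. Their median change was -0.004, with 66 above 0 and 67 below, and none passed the test. A limma unadjusted p under 0.05 was found for 19 (14.3%, 10 higher and 9 lower), against 12.6% of all genes. At or above the median level, where 107 of the 133 lay, the share of genes was 15.8%. GAS5, a host of many box C/D snoRNAs, read 7.88 and 8.09 with control siRNA and 7.89 and 7.88 with SSRP1 siRNA. SNHG8, a host of an H/ACA snoRNA, read 8.38 and 8.48 with control siRNA and 8.31 and 8.18 with SSRP1 siRNA, a change of -0.19 ± 0.11 (SE, limma adjusted p = 0.550).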

How the data were processed

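The authors deposited log2 expression values per probe set, normalized by RMA (submitters' processing notes). The sources used here give neither the software nor how probe sets were defined. The log2 scale follows from the range of the values. Of 46255 probe sets, 15835 had 1 gene symbol in the platform annotation, for 14812 genes, with the probe set of highest mean used for genes with several. limma (version 3.58.1, R 4.3.3), without trend, robust estimation or filter, compared the groups over all 14812 genes, with Benjamini-Hochberg adjustment and a threshold of 0.05. The fit had 2 residual and 3.79 prior degrees of freedom. It was tested on simulated data with known changes. It called 1.6% of the log2 changes of 0.5, 74.8% of those of 1 and 97.9% of those of 2. Of its calls, 5.48% were false. The simulated noise followed the spread over all genes, whose median residual SD was 0.11. That of the scaRNA genes was 0.16, so fewer of their changes may be called. Changes as large as those of the scaRNA genes, -0.55 to 0.54, would thus rarely be called. An exact permutation of 2 against 2 arrays could not reach that threshold.

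Hosts are the shortest non-small-RNA RefSeq gene (GRCh38.p14) holding a whole scaRNA gene, antisense names passed over since the table has no strand. Lengths are RefSeq's. The prefix did not divide the genes, so the kind of guide was assigned from textbook knowledge. By the rule for named genes, SSRP1, the genes of smallest p in each direction, the brightest genes of a class, core proteins the 5 list genes of smallest p and hosts were named, and any other gene was chosen after its values were seen. Members and lists were chosen with earlier results of these data known, and the splits by signal and length after the values were seen. Alternatives were a replicate block, a variance trend, robust variances, quantile normalization, median centring, probe set means, brighter genes alone, all probe sets and each array left out. The number of arrays limits the precision.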

Additional observations from a re-analysis of the deposited data

How the results depend on the processing

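The count of scaRNA genes past the test was 0 under all 12 alternatives, as was that of the 29 protein genes, and the lowest adjusted p of a scaRNA gene was 0.0608 (SCARNA4, genes at or above the median level). The fits leaving out an array had 1 residual degree of freedom, and no gene at all passed in them. With the replicate number as a block, 6 of all genes passed instead of 14, and no scaRNA gene did. The count of scaRNA genes at a limma unadjusted p under 0.05 was again 4, but not of the same genes. SCARNA18, a lower gene, came in (0.0293) and SCARNA5, a higher one, dropped out (0.0549). SSRP1 lost its call with the block (limma adjusted p = 0.0569), with robust variances (0.0512) and over all probe sets (0.144). Its log2 change was -1.95 in those fits and between -2.17 and -1.72 without 1 array. The correlation of same-numbered arrays' deviations was 0.114 over all genes, and with 2 pairs the numbers were not taken as pairing. Of all genes, 215 passed with a variance trend, 28 after quantile normalization, 23 after median centring, 179 at or above the median level, 9 with robust variances and 0 over all probe sets. The count at an unadjusted p under 0.05 was 2 over all probe sets and 2 to 5 without 1 array. Median changes without 1 array ran from 0.0154 to 0.153 for all scaRNA genes, from -0.0487 to 0.143 for H/ACA scaRNAs, and from -0.0239 to 0.0662 for the hosts. The median of all genes was 0.0136 after median centring. Signs turned for SCARNA22 after quantile normalization (-0.0233), for SCARNA23 after quantile normalization (0.00774) and median centring (0.00515), and for TIPIN after quantile normalization (-0.0063). Without 1 array the change ran from -0.814 to 0.00495 for SCARNA1, -0.0179 to 0.153 for SCARNA11, -0.0797 to 0.0163 for SCARNA17, -0.00565 to 0.286 for SCARNA2, -0.319 to 0.143 for SCARNA20, -0.0487 to 0.353 for SCARNA21, -0.0496 to 0.0789 for SCARNA22, -0.492 to 0.461 for SCARNA23, -0.00115 to 0.553 for SCARNA6, -0.0622 to 0.207 for SCARNA9 and -0.012 to 0.0745 for SCARNA9L. It ran from -0.0949 to 0.0262 for SNU13, -0.40 to 0.106 for CEP295, -0.184 to 0.091 for CHD3, -0.158 to 0.012 for NSD2, -0.0665 to 0.0968 for TIPIN and -0.138 to 0.0137 for TMEM167A. The cause was not tested. In all, 10 scaRNA genes kept their sign in every alternative that gave them a value and 11 did not.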

Other observations

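Another family of short noncoding RNAs, the SNAR genes, was examined after its values had been seen. These are primate-specific, multi-copy genes of RNA polymerase III whose near-identical copies the probes can hardly tell apart, so their values are not independent. All 8 measured SNAR genes had a change above 0 with SSRP1 siRNA, with a median of 0.33, and 6 of the 8 had groups that did not overlap, all higher, against 21.8% of all genes. SNAR-C1 read 11.47 and 11.49 with control siRNA and 11.75 and 11.90 with SSRP1 siRNA, a change of 0.35 ± 0.11 (SE, limma adjusted p = 0.315). None of the 8 passed the test, and 5 had an unadjusted p under 0.05, all higher, against 6.56% of all genes.

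The 1022 measured miRNA genes had changes between -0.93 and 1.03 with a median of -0.02, with 12.7% at an unadjusted p under 0.05 against 12.6% of all genes. RMRP, the RNA of RNase MRP, had a change of 0.03 ± 0.10 (SE), and RPPH1, the RNA of RNase P, one of -0.05 ± 0.13 (SE).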
